A study of Mus musculus with 9 samples.

Results

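The machinery that senses sterols and releases the sterol regulatory element-binding proteins (SREBPs) was followed at the RNA level in lipid-loaded macrophages. It was represented by 7 genes: the precursors Srebf1 and Srebf2, the escort Scap, the retention factors Insig1 and Insig2, and the proteases Mbtps1 and Mbtps2. They were picked by gene symbol, with earlier results of these data known, and are 7 of the 54432 genes in the deposited table. All 7 passed the filter on low counts and were among the 12637 genes tested.

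The cells were RAW 264.7, a mouse macrophage-like line, at passages 13 to 15. Control cells were left untreated, VLDL-sized cells received 1 mM of emulsion particles of the size of very low-density lipoprotein (VLDLsep) for 6 hours, and CHYL-sized cells received 1 mM of chylomicron-sized particles (CHYLsep) for 6 hours, with 3 libraries in each group. A figure legend of the study gives a lower dose for the CHYL-sized particles than the labels and methods do. The particles were sunflower oil emulsified with sodium caseinate, and the controls received neither, so against control the effects of particle, oil and emulsifier cannot be told apart. Within an experiment the samples of a condition were pooled, so that a library is a pool, and all cells came from a single line.

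SREBPs are made as precursors in the membrane of the endoplasmic reticulum (ER), bound to the escort protein SCAP. When ER sterols are low, SCAP carries the precursor to the Golgi in COPII vesicles, where site-1 protease and then site-2 protease cut it and free the transcription factor. When sterols are high, INSIG proteins hold SCAP in the ER, and unsaturated fatty acids are known to restrain the pathway as well. Insig1, Srebf2 and Srebf1 are themselves known targets of nuclear SREBP, and Srebf1 is also known as a target of the liver X receptors (LXRs).

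The start regions of the 3 genes with the largest changes are shown because nuclear SREBP is known to act through short elements near these starts, in company with NF-Y and Sp1. Each is a RefSeq window on GRCm38.p6, written on the gene's strand, from 250 bases before the start to 50 bases after it. Capitals mark matches, on either strand, to an SRE core (TCACNCCA), a palindromic E-box (CACGTG), another E-box (CATGTG), an NF-Y box (CCAAT, or ATTGG on the opposite strand) or a GC box (GGGCGG, or CCGCCC on the opposite strand). No matches overlapped one another in these windows.
Insig1, chr5:28071162-28071461, plus strand: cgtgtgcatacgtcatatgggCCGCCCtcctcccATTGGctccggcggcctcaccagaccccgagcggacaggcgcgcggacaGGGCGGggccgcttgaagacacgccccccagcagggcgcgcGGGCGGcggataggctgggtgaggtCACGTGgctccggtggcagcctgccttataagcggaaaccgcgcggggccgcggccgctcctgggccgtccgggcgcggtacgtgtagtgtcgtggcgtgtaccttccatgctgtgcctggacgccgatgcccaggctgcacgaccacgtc
Srebf2, chr15:82147019-82147318, plus strand: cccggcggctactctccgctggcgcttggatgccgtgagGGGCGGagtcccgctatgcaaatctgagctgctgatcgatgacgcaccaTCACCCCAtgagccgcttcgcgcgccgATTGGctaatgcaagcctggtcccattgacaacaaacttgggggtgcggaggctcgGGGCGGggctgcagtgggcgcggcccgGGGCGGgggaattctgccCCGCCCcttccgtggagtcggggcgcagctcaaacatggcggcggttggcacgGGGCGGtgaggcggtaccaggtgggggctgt
Srebf1, chr11:60210422-60210721, minus strand: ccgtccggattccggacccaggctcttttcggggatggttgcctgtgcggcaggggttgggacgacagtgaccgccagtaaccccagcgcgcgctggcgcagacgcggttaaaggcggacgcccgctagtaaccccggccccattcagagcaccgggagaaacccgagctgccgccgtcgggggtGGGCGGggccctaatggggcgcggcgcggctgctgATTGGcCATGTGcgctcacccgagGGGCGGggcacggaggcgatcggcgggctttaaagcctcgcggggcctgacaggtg

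The Insig1 window held a palindromic E-box with its first base 101 bases before the start, an NF-Y box and 3 GC boxes. The Srebf2 window held the SRE core TCACCCCA, with its first base 162 bases before the start, an NF-Y box starting 135 bases before it and 5 GC boxes. The Srebf1 window shown is the most downstream of 3 RefSeq windows of that gene, and held an NF-Y box next to a CATGTG E-box just before the start, with 2 GC boxes. In the other Srebf1 windows, the one starting at position 60222532 held 1 NF-Y box and the one at 60220578 held 3 GC boxes. Neither of them held a marked E-box. Counts per gene do not show which of the Srebf1 starts these cells used. Of all 32851 RefSeq windows of the same length, 4.36% held the SRE core, 7.15% the palindromic E-box, 14.2% the CATGTG E-box, 37.4% an NF-Y box and 35.7% a GC box. The SRE core was thus the rarest of these letters, and among the 12 windows of the 7 genes it was found in the Srebf2 window. Both Scap windows held the palindromic E-box, Mbtps1 had a GC box, the 3 Insig2 windows held NF-Y boxes or a GC box, and Mbtps2 had none of the 5 motifs. A match of letters is a description and not a measured binding site. Sites that differ from these letters are not marked, so a window without a match is not shown to lack a site.

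The libraries held 22393893 to 22856792 estimated counts each, so depth differed little between groups. Levels are given as cpm, the share of a library's counts scaled to a common total, after TMM normalization, which corrects library sizes for differences in composition. All 8 macrophage markers were detected, with a summed level of 6055 to 6160 cpm in control, 5573 to 5801 cpm in VLDL-sized and 5712 to 5936 cpm in CHYL-sized libraries. At an adjusted p under 0.05 against control, 4 of them fell and 1 rose with VLDL-sized particles, and 1 fell with CHYL-sized particles. Among all genes tested, 17.9% fell and 17.8% rose with VLDL-sized particles, and 13.0% fell with CHYL-sized ones. Scaled by library size only, 5 of the markers fell with either particle. Of 14 markers of fibroblasts, epithelium, endothelium, lymphocytes and hepatocytes, 8 had no count in any library, and their summed level was 0.685 to 1.46 cpm. The mitochondrial share of counts was 5.59 to 5.98% in control, 6.22 to 6.83% in VLDL-sized and 6.58 to 6.90% in CHYL-sized libraries. The part of these shifts in the results was not tested. The third replicate of every group stood apart from the other two, with a chi-square per gene of 11.9 to 15.1 against 3.38 to 5.02 between replicates 1 and 2, so results are also given without it. In bulk RNA, fewer cells and less RNA per cell cannot be told apart.

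**Figure D1:**
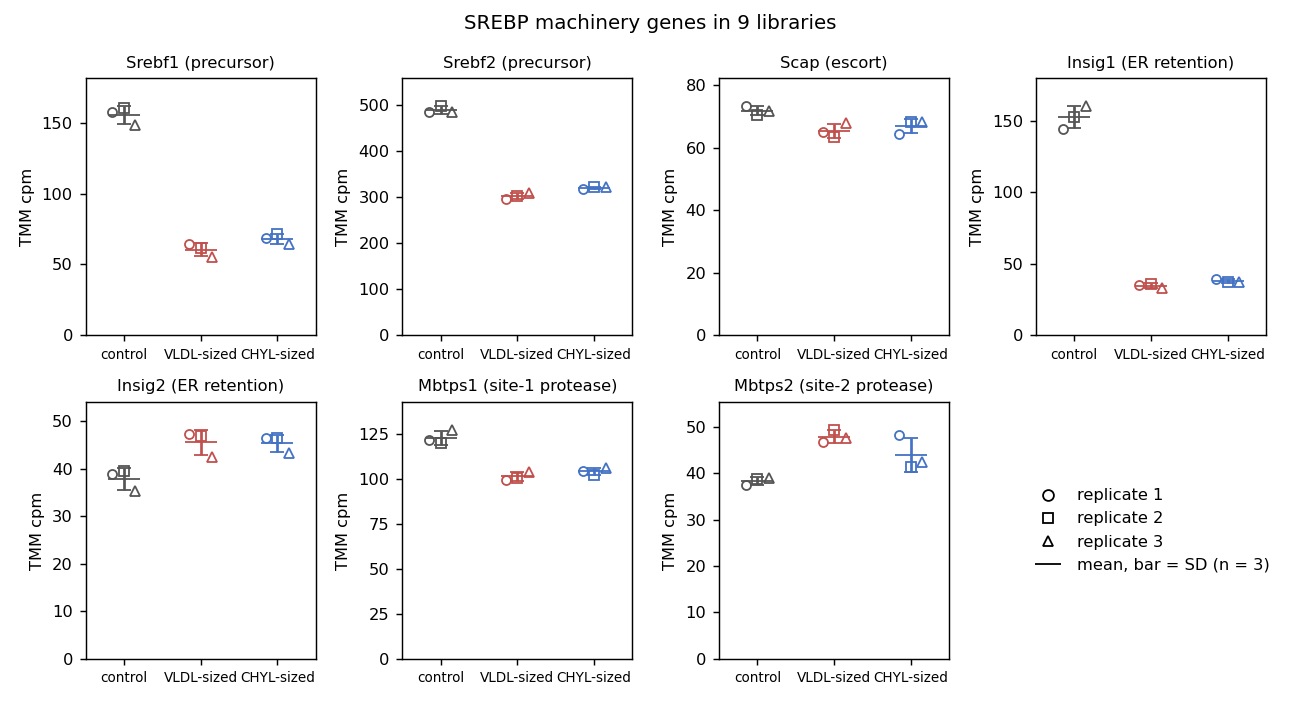
Level of each of the 7 genes in TMM-normalized cpm (vertical axis, from 0) in the 9 libraries, grouped as control, VLDL-sized and CHYL-sized, with symbols for replicates 1 to 3 and lines and bars for mean and SD (n = 3). Insig1 fell from 144 to 160.1 cpm in control to 32.8 to 39.5 cpm in the 6 treated libraries, whereas Insig2 and Mbtps2 lay higher in treated cells.

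VLDL-sized particles changed the RNA of 6 of the 7 genes against control. Insig1, Srebf1, Srebf2 and Mbtps1 fell, Insig2 and Mbtps2 rose, and Scap did not pass the threshold. Insig1 fell the most, to 22.7% of the control level, and Srebf1 fell to 38.8%. For comparison, 35.6% of the 12637 genes tested passed the same threshold, an adjusted p under 0.05 from limma-voom with Benjamini-Hochberg adjustment, with 17.8% higher and 17.9% lower. The median log2 fold change of the 7 genes was -0.28, and that of all genes tested was -0.00028. For all 7 genes, control and VLDL-sized libraries did not overlap, which was also so for 47.4% of all genes tested.

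Insig1 encodes the INSIG protein that is itself made under SREBP control. Its level was 144, 153 and 160.1 cpm in the 3 control libraries and 35.3, 35.6 and 32.8 cpm in the VLDL-sized libraries. The treated libraries all lay far below the controls and close to one another. The log2 fold change was -2.14 (SE 0.06, 95% confidence interval -2.27 to -2.01, adjusted p = 5.6e-09 by limma-voom), a 4.40-fold fall. It was the 37th lowest log2 fold change of all genes tested. The gene lies on GRCm38 at chr5:28071363-28078662 on the plus strand, and its longest coding transcript has 5 exons.

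Insig2, whose protein also retains SCAP but whose RNA is known to depend little on SREBP, moved the other way. It measured 38.9, 39.6 and 35.3 cpm in control and 47.2, 46.9 and 42.5 cpm in VLDL-sized libraries. In both groups replicate 3 was the lowest library, and every treated library lay above every control library. The log2 fold change was 0.26 (SE 0.07, 95% confidence interval 0.12 to 0.41, adjusted p = 0.011 by limma-voom), a 1.20-fold rise. Scaled by library size only, which moves the median of all genes to -0.09, the value was 0.17 (adjusted p = 0.10 by limma-voom) and the call was lost. The gene spans chr1:121304353-121332589 on the minus strand, with 6 exons in its longest coding transcript.

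Srebf1 encodes the SREBP known mainly for fatty acid synthesis. The deposited table is per gene and cannot separate its isoforms. Its level was 158, 160.4 and 148 cpm in control and 64.3, 61.7 and 55.1 cpm in VLDL-sized libraries. The groups were far apart, with the third replicate the lowest in each. On the log2 scale the change was -1.37 (SE 0.07, 95% confidence interval -1.52 to -1.22, adjusted p = 2.7e-07 by limma-voom), a 2.58-fold fall. Srebf1 lies at chr11:60199089-60222581 on the minus strand with 19 exons in its longest coding transcript. Its end shares exon bases with Rai1 on the opposite strand, to which 557 to 702 counts per library were assigned, against 1210 to 3807 for Srebf1.

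Srebf2 encodes the SREBP known mainly for cholesterol synthesis and uptake, and was the most abundant of the 7 genes. It measured 484, 498 and 485 cpm in control and 296, 302 and 308 cpm in VLDL-sized libraries. The fall was smaller than that of Srebf1, and the libraries of a group lay within a narrow range. Srebf2 changed by -0.69 on the log2 scale (SE 0.04, 95% confidence interval -0.78 to -0.61, adjusted p = 9.4e-07 by limma-voom), a 1.62-fold fall. The gene spans chr15:82147181-82205379 on the plus strand, again with 19 exons in the longest coding transcript. Mir33, a microRNA gene in an Srebf2 intron, was listed at 0 counts in all 9 libraries. Whether these libraries, made from sheared RNA and read as 150-bp pairs, could capture a mature microRNA was not tested. The 0 counts therefore do not show that it was absent.

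Scap encodes the sterol-sensing escort. It measured 73.4, 70.5 and 71.7 cpm in control and 65.1, 63.5 and 67.8 cpm in VLDL-sized libraries. The treated libraries were all below the controls, by a margin of a few cpm. Its log2 fold change was -0.14 (SE 0.05, 95% confidence interval -0.24 to -0.03, adjusted p = 0.054 by limma-voom). With the replicate number as a block it passed the threshold (adjusted p = 0.025 by limma-voom), and without VLDL-sized replicate 3 the log2 fold change was -0.16 (adjusted p = 0.044 by limma-voom). With library size only the value was -0.23 (adjusted p = 0.0034 by limma-voom), and over all alternatives the adjusted p ran from 0.0034 to 0.17. Scap lies at chr9:110333288-110384950 on the plus strand with 23 exons in its longest coding transcript.

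The 2 proteases moved in opposite directions. Mbtps1 encodes site-1 protease, which makes the first cut. It measured 121, 119.8 and 127 cpm in control and 99.4, 101 and 104 cpm in VLDL-sized libraries, and the groups were separated by a clear gap. The log2 fold change was -0.28 (SE 0.05, 95% confidence interval -0.38 to -0.18, adjusted p = 0.00082 by limma-voom). Mbtps2 encodes site-2 protease, which makes the second cut inside the membrane. It measured 37.4, 38.7 and 39.0 cpm in control and 46.8, 49.4 and 47.5 cpm in VLDL-sized libraries. The log2 fold change was 0.32 (SE 0.06, 95% confidence interval 0.18 to 0.46, adjusted p = 0.0031 by limma-voom), a 1.25-fold rise. Mbtps1 lies at chr8:119508156-119558735 on the minus strand with 24 exons, and Mbtps2 at chrX:157535371-157598715 on the minus strand with 11 exons. Yy2 lies inside Mbtps2 on the same strand and shares exon bases with it, so reads could be split between them, and 97.0 to 131 counts per library were assigned to Yy2.

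CHYL-sized particles changed 5 of the 7 genes against control. The control libraries are those of the VLDL-sized comparison, so the values of both are not independent. Insig1, Srebf1, Srebf2 and Mbtps1 fell and Insig2 rose, while Scap and Mbtps2 did not pass the threshold. Of all genes tested, 25.7% were called in this comparison, 12.7% higher and 13.0% lower. The median log2 fold change of the 7 genes was -0.24 against 0.0013 for all genes tested. Control and CHYL-sized libraries of all 7 genes did not overlap, as for 41.7% of all genes tested.

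Insig1 measured 39.5, 37.4 and 37.1 cpm in the CHYL-sized libraries, far below the 3 controls, with a log2 fold change of -2.002 (SE 0.06, 95% confidence interval -2.13 to -1.87, adjusted p = 1.1e-08 by limma-voom). Srebf1 measured 68.8, 71.3 and 64.0 cpm, with a log2 fold change of -1.19 (SE 0.07, 95% confidence interval -1.34 to -1.05, adjusted p = 8.6e-07 by limma-voom). Both genes were lowered more than 2-fold, by 4.01-fold for Insig1 and 2.29-fold for Srebf1. Srebf2 measured 318, 321 and 321 cpm, with a log2 fold change of -0.61 (SE 0.04, adjusted p = 3.3e-06 by limma-voom). Mbtps1 measured 104, 102 and 106 cpm, with a log2 fold change of -0.24 (SE 0.05, adjusted p = 0.0031 by limma-voom).

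Insig2 measured 46.4, 46.4 and 43.3 cpm in the CHYL-sized libraries, all above the controls, with a log2 fold change of 0.26 (SE 0.07, adjusted p = 0.016 by limma-voom). This call was lost with library size only (0.18, adjusted p = 0.11 by limma-voom) and without control replicate 3, CHYL-sized replicate 1 or CHYL-sized replicate 2 (0.21, 0.24 and 0.24, adjusted p = 0.050, 0.060 and 0.057 by limma-voom). Mbtps2 measured 48.2, 41.4 and 42.4 cpm, with the first replicate well above the other two. Its log2 fold change was 0.20 (SE 0.07, 95% confidence interval 0.05 to 0.34, adjusted p = 0.051 by limma-voom), and it rested on single libraries. Without CHYL-sized replicate 1 it was 0.12 (adjusted p = 0.19 by limma-voom), without CHYL-sized replicate 2 it was 0.24 (adjusted p = 0.043 by limma-voom), and with library size only it was 0.11 (adjusted p = 0.25 by limma-voom). Scap measured 64.5, 68.1 and 68.3 cpm, with a log2 fold change of -0.10 (SE 0.05, 95% confidence interval -0.21 to 0.01, adjusted p = 0.15 by limma-voom). Library size only brought Scap past the threshold, with a value of -0.18 (adjusted p = 0.015 by limma-voom).

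Leaving out replicate 3 of every group, a setting added after the libraries had been seen, did not take away any of these calls. Without it all 7 genes passed the threshold in the VLDL-sized comparison, with a log2 fold change of -2.06 for Insig1, -1.34 for Srebf1, -0.72 for Srebf2 and -0.16 for Scap. In the CHYL-sized comparison 6 of the 7 passed it, Scap being the exception, with -1.95 for Insig1, -1.18 for Srebf1, -0.62 for Srebf2 and 0.23 for Mbtps2. This setting also gave more calls over all genes, with 5380 in the VLDL-sized and 4182 in the CHYL-sized comparison against 4500 and 3249 with all 9 libraries. Fewer libraries did not do so in general, as leaving out control replicate 1 alone gave 3482 and 2320.

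**Figure D2:**
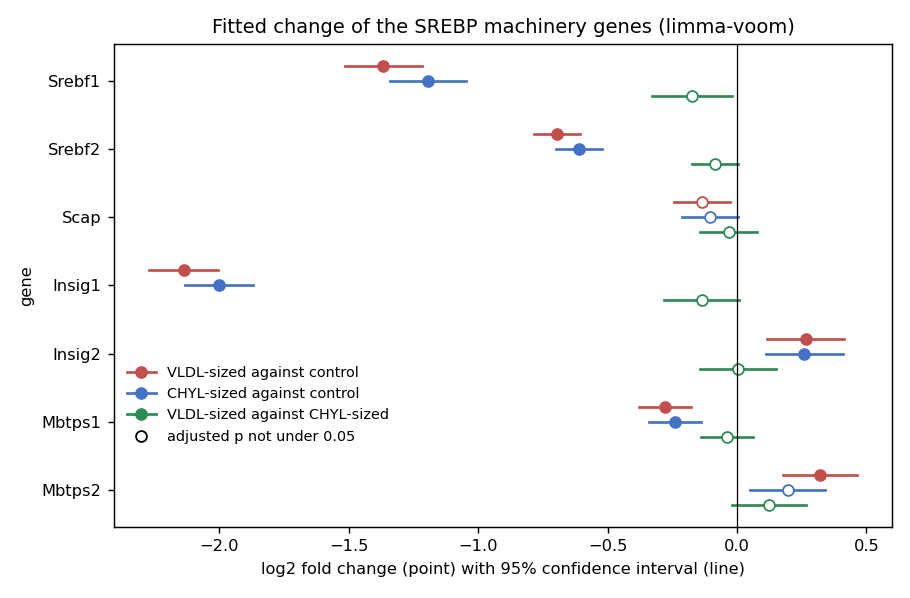
Log2 fold change from limma-voom (point) with its 95% confidence interval (line) for each gene in the 3 comparisons, with filled points for an adjusted p under 0.05. Insig1 (-2.14 and -2.002) and Srebf1 (-1.37 and -1.19) lie far left of 0 against control, and the points for VLDL-sized against CHYL-sized lie between -0.17 and 0.12, all unfilled.

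The 2 particle sizes were then compared with each other. None of the 7 genes differed at the threshold, and 0% of all genes tested did so with limma-voom. edgeR also called 0 genes and DESeq2 called 24, none of them among the 7. At an unadjusted p under 0.05, limma-voom gave 813 genes, or 6.43%, with Srebf1 the single gene of the 7 among them. The difference in Srebf1 was -0.17 on the log2 scale (95% confidence interval -0.33 to -0.02, adjusted p = 0.73 by limma-voom). Differences in Insig1 of -0.14 (-0.28 to 0.01) and Srebf2 of -0.08 (-0.17 to 0.01) had intervals that reached 0. For Insig1 and Srebf2 the VLDL-sized libraries all lay below the CHYL-sized ones, and 11.3% of all genes tested had groups that did not overlap in this comparison. The intervals were -0.14 to 0.08 for Scap, -0.14 to 0.15 for Insig2, -0.14 to 0.06 for Mbtps1 and -0.02 to 0.27 for Mbtps2. With 3 libraries a group, differences within these intervals remain possible, so the lack of calls does not show that the particles act alike.

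Ratios of counts within a library do not depend on the normalization. Between groups of 3 libraries the exact two-sided permutation test cannot go below p = 0.1, and 9 such tests were made. The Insig1 to Insig2 ratio turned over. Insig1 had 3.71, 3.85 and 4.53 times the counts of Insig2 in control libraries, 0.748, 0.758 and 0.772 times in VLDL-sized and 0.851, 0.805 and 0.857 times in CHYL-sized libraries. The mean log2 ratio was 2.01 ± 0.15 in control, -0.40 ± 0.02 in VLDL-sized and -0.26 ± 0.05 in CHYL-sized cells (SD, n = 3 each). It was lower by 2.40 and 2.26 in the 2 treated groups, with no overlap (exact permutation p = 0.1 each, adjusted p = 0.129). Between the particles it differed by -0.14, VLDL-sized being lower, again with no overlap (exact permutation p = 0.1). By counts Insig1 thus went from the more to the less abundant INSIG transcript. The longest coding transcripts of both have 2697 bases, so the ratio per kilobase of that transcript is the same. With the length of all exons joined the genes lay closer. After CHYL-sized particles Insig1 was then at 12.3 and Insig2 at 13.1 cpm per kilobase, with overlapping libraries.

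The balance of the precursors shifted toward Srebf2. The Srebf1 to Srebf2 ratio of counts was 0.326, 0.322 and 0.306 in control, 0.218, 0.204 and 0.179 in VLDL-sized and 0.216, 0.222 and 0.199 in CHYL-sized libraries. The mean log2 ratio was -1.65 ± 0.05, -2.33 ± 0.14 and -2.24 ± 0.08 in the 3 groups (SD, n = 3 each), and the treated libraries all lay below the controls (exact permutation p = 0.1 for each particle, adjusted p = 0.129). For this ratio the particles differed by -0.09 from each other, with overlapping libraries (exact permutation p = 0.6). The Insig1 to Scap ratio, retention factor to escort, fell from a mean log2 of 1.08 ± 0.10 to -0.92 ± 0.11 and -0.82 ± 0.10 (SD, n = 3 each, exact permutation p = 0.1 for each particle, adjusted p = 0.129), and the particles differed by -0.10 with overlapping libraries (exact permutation p = 0.4).

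**Figure D3:**
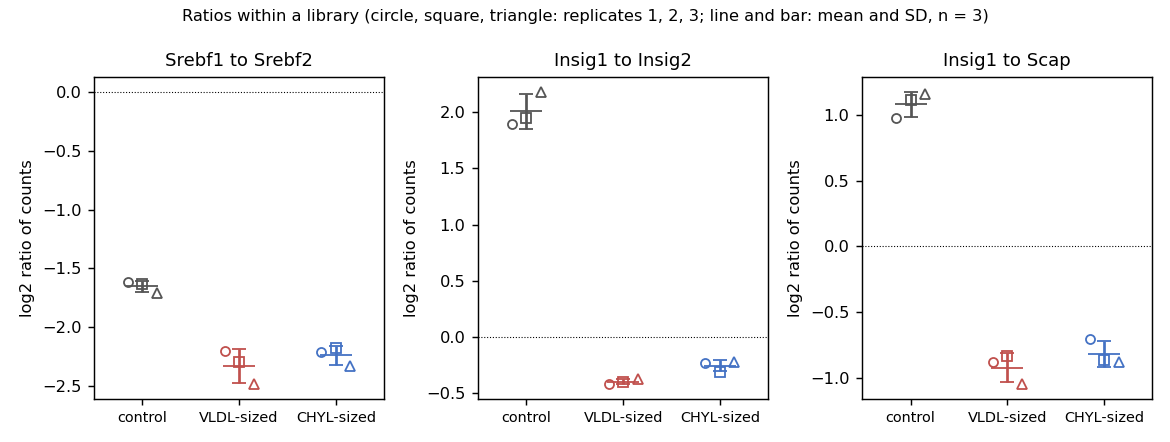
Log2 ratio of counts within a library (vertical axis) for Srebf1 to Srebf2, Insig1 to Insig2 and Insig1 to Scap in control, VLDL-sized and CHYL-sized cells, with symbols for replicates 1 to 3 and lines and bars for mean and SD (n = 3). The Insig1 to Insig2 ratio lies at 1.89 to 2.18 in control and between -0.42 and -0.22 in the 6 treated libraries, below the dotted line that marks equal counts.

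Levels of different genes were compared as cpm per kilobase of the longest coding transcript. In control cells the order was Srebf2 at 96.3 ± 1.57, Insig1 at 56.5 ± 2.92, Srebf1 at 36.2 ± 1.48, Mbtps1 at 28.3 ± 0.896, Scap at 17.0 ± 0.343, Insig2 at 14.1 ± 0.855 and Mbtps2 at 8.003 ± 0.177 (SD, n = 3 each). No neighbours in this order overlapped, although with the length of all exons joined Scap fell below Insig2. After VLDL-sized particles Srebf2 still led at 59.5 cpm per kilobase, followed by Mbtps1 at 23.4, Insig2 at 16.9, Scap at 15.5, Srebf1 at 14.04, Insig1 at 12.8 and Mbtps2 at 9.99. By this length Insig1 had moved from the second to the sixth place, whereas with all exons joined it went from the second to the third place after either particle. In this order Insig2 and Scap overlapped, as did Srebf1 and Insig1. After CHYL-sized particles the order of means was the same, with 63.1 for Srebf2, 24.0 for Mbtps1, 16.8 for Insig2, 15.8 for both Scap and Srebf1, 14.1 for Insig1 and 9.18 for Mbtps2. The place of Mbtps1 also depended on the length. With all exons joined it lay below Insig2, at 9.61 against 13.1 after VLDL-sized and 9.88 against 13.1 after CHYL-sized particles.

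The rise of Insig2 was small beside the fall of Insig1 per kilobase of the longest coding transcript. Summed over both INSIG genes, the level was 70.5 ± 2.33 cpm per kilobase in control, 29.7 ± 1.55 in VLDL-sized and 30.9 ± 1.01 in CHYL-sized cells (SD, n = 3 each). Insig1 made up 80.0 ± 1.68% of the sum in control and 43.2 ± 0.391% and 45.6 ± 0.847% in treated cells. With all exons joined these shares were 81.8, 46.0 and 48.5%. Set against Scap, which they hold back, the summed INSIG level was 3.91, 4.27 and 4.27 times the Scap level in control, 1.99, 2.04 and 1.74 times in VLDL-sized and 2.09, 1.93 and 1.85 times in CHYL-sized libraries. The size of this ratio depends on the length used. With all exons joined it was 5.87, 6.41 and 6.43 in control, 2.86, 2.93 and 2.51 in VLDL-sized and 3.02, 2.78 and 2.67 in CHYL-sized libraries. These are RNA levels, and no protein or cleavage of SREBP was measured here.

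Other proteins known to act on SCAP, INSIG and its clients or SREBP stability formed a list of 20 genes, all tested. With VLDL-sized particles 11 rose and 4 fell, with a median log2 fold change of 0.21, although the split was 6 and 6 with library size only, and 11 and 5 with the replicate block. With CHYL-sized particles 6 rose and 3 fell, with a median of 0.14, against 4 and 4 with library size only. Among all genes tested, 17.8% rose and 17.9% fell with VLDL-sized particles, and 12.7% rose and 13.0% fell with CHYL-sized ones. The largest fall was that of Lpin1, the lipin that is known to hold back nuclear SREBP, from 20.5 ± 1.36 to 6.09 ± 0.433 cpm (log2 fold change -1.75, adjusted p = 1.9e-06 by limma-voom). Rnf145, a ubiquitin ligase known to act on SCAP, fell from 70.6 ± 7.83 to 37.2 ± 3.83 cpm (log2 fold change -0.92, adjusted p = 0.00029 by limma-voom). Spring1, a partner of site-1 protease, rose from 20.1 ± 1.89 to 31.4 ± 2.91 cpm (log2 fold change 0.65, adjusted p = 0.00082 by limma-voom). Their log2 fold changes with CHYL-sized particles were -1.75, -0.66 and 0.32, and the last did not pass the threshold (adjusted p = 0.051 by limma-voom).

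Also in this list, Vcp, which extracts ubiquitinated proteins from the ER membrane, rose by 0.43 on the log2 scale with VLDL-sized particles (adjusted p = 0.00011 by limma-voom).

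The COPII coat, which moves SCAP with its cargo, had 12 genes, all tested. With VLDL-sized particles 6 rose and none fell, with a median of 0.13, and with CHYL-sized particles 3 rose and none fell, with a median of 0.10. Among all genes tested, 17.8 and 12.7% rose. With library size only the counts were 2 up and 1 down, and 1 up and 1 down, and with the replicate block 8 rose with VLDL-sized particles. Sec24d, a cargo-binding subunit, rose from 62.2 ± 8.71 to 106 ± 10.7 cpm with VLDL-sized particles (log2 fold change 0.77, adjusted p = 0.00036 by limma-voom). Sec24a (0.39, adjusted p = 0.0010) and Sec23a (0.38, adjusted p = 0.024 by limma-voom) were the next largest. Of the 9 factors known to work with nuclear SREBP, 2 rose and 1 fell with VLDL-sized particles, namely Crebbp (0.35), Med15 (0.14) and Nfyc (-0.26), while with CHYL-sized particles Crebbp rose (0.20, adjusted p = 0.037 by limma-voom) and the other 8 did not pass. These shares were no higher than the 35.6 and 25.7% of all genes tested. The median of these 9 genes was 0.04 in both comparisons. With library size only 1 rose and 1 fell, and 0 rose and 1 fell.

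Downstream, the sterol targets of SREBP fell with both particles. Of 22 genes listed, 20 could be tested, and 19 of them fell and none rose with either particle, with medians of -1.31 and -1.24. The shares of all genes tested that fell were 17.9 and 13.0%. Tmem97 was the exception, at -0.23 with VLDL-sized particles (adjusted p = 0.095 by limma-voom), and with the replicate block or without replicate 3 of every group all 20 fell. With VLDL-sized particles Hmgcs1, which makes HMG-CoA, went from 303 ± 30.5 to 65.2 ± 11.1 cpm (log2 fold change -2.23, adjusted p = 2.7e-06 by limma-voom). Mvd of the mevalonate pathway and Fdft1, squalene synthase, each fell by 1.74 on the log2 scale. Insig1, at -2.14, lay close to Hmgcs1, the most lowered gene of this list.

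Of 16 fatty acid targets 14 could be tested, with 12 lower and 1 higher with VLDL-sized particles (median -0.83) and 11 lower and 1 higher with CHYL-sized particles (median -0.85). Among all genes tested, 17.9 and 13.0% were lower, and 17.8 and 12.7% higher. Scd2, a stearoyl-CoA desaturase, fell from 1282 ± 73.9 to 143 ± 14.1 cpm with VLDL-sized particles (log2 fold change -3.16, adjusted p = 1.4e-08 by limma-voom). Scd1 fell by 3.05 on the log2 scale from a low level of 9.41 ± 0.876 cpm, and Aacs, which activates acetoacetate for lipid synthesis, by 1.62. Me1, malic enzyme, was the gene that rose, by 1.29 on the log2 scale. Acss2 did not pass the threshold in either comparison.

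Other LXR targets were counted because Srebf1 is one. Of 10 genes 8 could be tested, and 4 fell and none rose with either particle, with medians of -0.32 and -0.29. Falls were called for 17.9 and 13.0% of all genes tested. Without replicate 3 of every group 4 fell and 2 rose in each comparison, and with the replicate block 4 fell and 1 rose with VLDL-sized particles. The cholesterol transporters Abca1 and Abcg1 fell by 1.34 and 0.93 and Arl4c, a small GTPase, by 1.18 on the log2 scale with VLDL-sized particles. Of 8 other substrates of site-1 protease, all tested, 2 rose with VLDL-sized particles: Gnptab (0.28, adjusted p = 0.0013), the phosphotransferase of lysosomal enzyme tagging, and Atf6 (0.18, adjusted p = 0.0097 by limma-voom), the ER stress sensor. Of all genes tested 17.8% rose. With library size only 1 of the 8 rose, and with the replicate block 3. Mbtps1 itself fell by 0.28 on the log2 scale. With CHYL-sized particles Gnptab rose (0.24, adjusted p = 0.0054 by limma-voom) and Atf6 was at 0.06 (adjusted p = 0.39 by limma-voom).

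**Figure D4:**
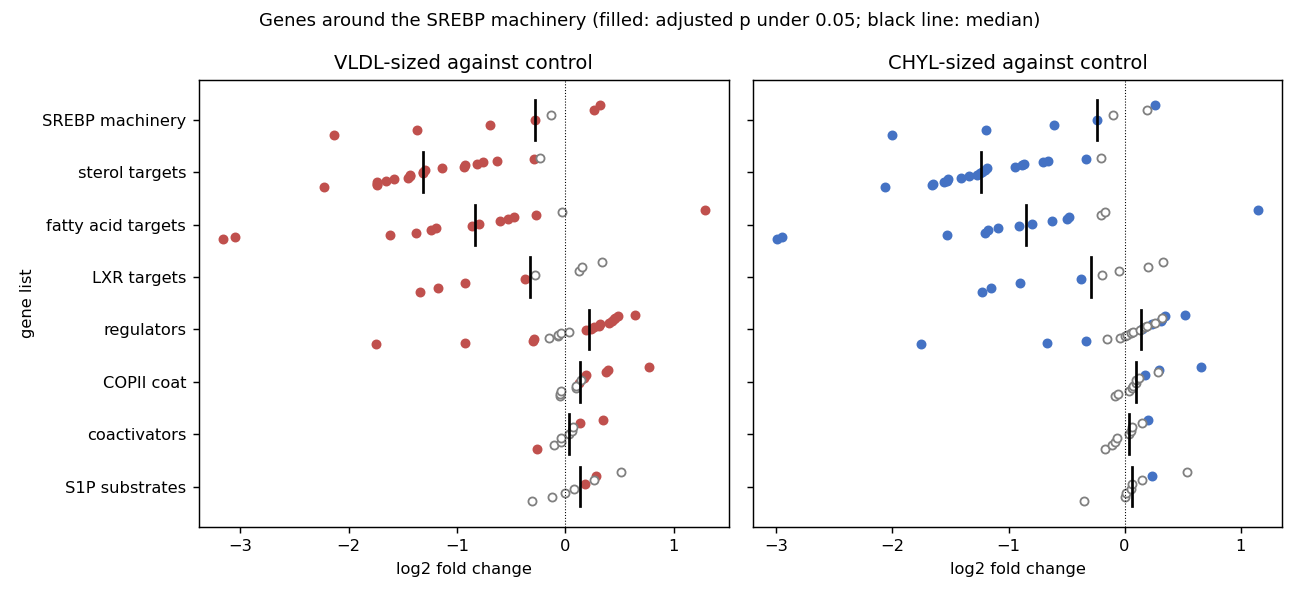
Log2 fold change from limma-voom (horizontal axis) of each tested gene in the SREBP machinery and 7 surrounding lists, for VLDL-sized and CHYL-sized particles against control, with filled points for an adjusted p under 0.05 and a black line at the median of each list. The sterol targets (medians -1.31 and -1.24) and fatty acid targets (-0.83 and -0.85) lie left of 0, and the COPII coat (0.13 and 0.10) lies close to it.

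Across the 9 libraries, log2 levels of the machinery genes fell into 2 sets that ran opposite to each other. Srebf1, Srebf2, Insig1, Mbtps1 and Scap correlated positively among themselves, from 0.817 for Srebf1 with Scap to 0.994 for Srebf2 with Insig1, and negatively with Insig2 and Mbtps2. Insig2 and Mbtps2 had a correlation of 0.766. These are Pearson correlations over 9 points that share their treatment groups, and are given as a description. Among all other tested genes, the closest to Srebf2 were Hsd17b7 (0.997), Cers4 (0.997) and Fdft1 (0.996), the first and last being sterol synthesis genes. Among the 3 closest to Srebf1 were Cdk2 (0.996) and Nfatc2 (0.995), and closest to Insig1 were Scd2 (0.996), Cnksr3 (0.995) and Rfwd3 (0.995). For the genes with smaller changes, the closest were Tmpo, Ptpro and Daglb for Mbtps1 (0.994 to 0.996), Dapk1, Oxr1 and Dubr for Insig2 (0.989 to 0.995), Eif3a, Golga4 and Hspa13 for Mbtps2 (0.972 to 0.991) and Gm45716, Spr and Gm20300 for Scap (0.969 to 0.979).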

How the data were processed

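RNAseq was performed by the study on 9 libraries of RAW 264.7 cells (BGISEQ-500, 150-bp paired reads), and groups and replicate numbers were taken from the labels. The deposited values are estimated counts of genes, obtained by the authors with Salmon 0.14.1 on GENCODE transcripts of GRCm38.p6 and summed to genes with tximport. Their methods describe a scaling by length and library size, but 58.3% of the values above 10 are whole, so they were taken to be unscaled. Columns of unknown origin were not found. Symbols were matched for 54346 of 54432 genes, and coordinates came from the GENCODE M21 annotation of GRCm38. Genes with more than 10 counts (about 0.449 cpm) in at least 3 libraries were normalized by TMM (edgeR 4.0.16), weighted with voom and fitted with limma 3.58.1 in R 4.3.3, as a single model of the 9 libraries with a mean per group. Estimated counts were rounded for edgeR and DESeq2 1.42.0. Depth was nearly equal, and p-values measure the spread between 3 pools a group. The steps were checked on simulated data.

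The ratios were tested with an exact permutation test after adding 0.5 counts. Same-numbered VLDL-sized and control libraries deviated together across genes (0.138, 0.132 and 0.293), although VLDL-sized replicate 2 and control replicate 1 also did (0.116). The block is therefore given where it changes a call of the 7 genes or a list count in the VLDL-sized comparison. List counts with the block for CHYL-sized particles are given below. The methods do not say what a number marks.

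The 7 genes and the lists around them were chosen from general knowledge with earlier results of these data known. Named genes are the 7, the 3 largest changes with an adjusted p under 0.05 in VLDL-sized against control from each list, and the 3 genes closest to each of the 7 by Pearson correlation, some of which are not reported here. Vcp, Tmem97, Me1, Acss2, Rai1, Mir33 and Yy2 are named outside this rule, their values having been known. Alternatives were edgeR, DESeq2, limma-trend (prior count 2), upper-quartile normalization, library size only, more than 50 counts in 3 libraries, no filter, only the groups compared, the replicate block and each library left out.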

Additional observations from a re-analysis of the deposited data

How the results depend on the processing

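Of 399 recomputed log2 fold changes of the 7 genes, 381 stayed on their side of the threshold, 5 lost the call and 13 gained it. The sign turned in 0 of the called values, and among the uncalled ones for Insig2 between the particles, which lay between -0.03 and 0.05. Insig1, Srebf1, Srebf2 and Mbtps1 kept their calls against control in every alternative run, with Insig1 between -2.23 and -2.06 for VLDL-sized and between -2.08 and -1.95 for CHYL-sized particles. The calls that moved were those of Insig2, Scap and Mbtps2. Scap passed the threshold with VLDL-sized particles also with library size only (-0.23, adjusted p = 0.0034 by limma-voom), upper-quartile normalization (adjusted p = 0.047 by limma-voom) and the stricter filter (0.043). Mbtps2 passed it with CHYL-sized particles with edgeR (adjusted p = 0.046), limma-trend, the stricter filter (0.046) and the block (0.023). Library size only lowered the share of called genes that were higher from 49.9 to 31.3% in the VLDL-sized comparison and from 49.6 to 29.8% in the CHYL-sized one. The ratios kept their direction in all alternatives run.

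With the replicate number as a block, 6058, 4949 and 147 genes were called for VLDL-sized particles, CHYL-sized particles and the comparison of the particles, and 4500, 3249 and 0 without it. Beside Scap with VLDL-sized particles and Mbtps2 with CHYL-sized particles, the block changed no other call of the 7 genes. List counts with CHYL-sized particles also moved with the block. There 10 of the SCAP, INSIG and SREBP regulators rose and 4 fell, and 5 COPII genes rose. Of the factors working with nuclear SREBP 2 rose and 1 fell, of the LXR targets 2 rose and 4 fell, and 12 fatty acid targets fell. Of the macrophage markers 2 rose and 2 fell. In the comparisons with CHYL-sized cells the third replicates deviated together (0.338 with control, 0.357 with VLDL-sized). Numbers 1 and 2 did not pair the libraries (0.124 and 0.0684 with control, 0.0286 and 0.117 with VLDL-sized). CHYL-sized replicate 2 correlated better with control replicate 1 (0.155) than with control replicate 2. It also correlated better with VLDL-sized replicate 1 (0.179) than with VLDL-sized replicate 2. VLDL-sized against CHYL-sized gave 24 genes with DESeq2, 0 to 1 with single libraries left out, the 1 appearing without VLDL-sized replicate 3 or CHYL-sized replicate 2, and 257 without replicate 3 of every group. The cause was not tested.

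The calls that changed were those with folds of 1.07 to 1.20 with all 9 libraries.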

Other observations

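Elovl6, a fatty acid elongase, was listed at 0 counts in all 9 libraries, although Elovl5, another elongase, had 144 ± 5.46 cpm in control (SD, n = 3). Pltp was also at 0 throughout, and Pnpla3 and Abcg5 lay below the filter. No fold change is given for these genes.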
